A study of Mus musculus with 112 samples.

Results

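The respiratory chain and ATP synthase are built from many nuclear-encoded subunits, and their messenger RNAs were followed here across mouse mammary tumours. The members are the probe sets of both Affymetrix arrays of the series that carry a single gene symbol starting with Ndufa, Ndufb, Ndufc, Ndufs, Ndufv, Sdha to Sdhd, Cox4 to Cox8 or Atp5. They comprised 169 probe sets for 86 genes, of 35041 such single-symbol probe sets for 18193 genes in all. Each gene was read from its brightest probe set, which lay on the MOE430A array (array A) for 79 genes and on the MOE430B array (array B) for 7. By the complex their product belongs to, the genes were 34 subunits of complex I, 4 of complex II, 19 of complex IV and 17 of complex V. The other 12 were assembly factors of complexes I and II (Ndufaf and Sdhaf genes), which the symbol rule also takes in. Ndufa4 and Ndufa4l2, named for complex I, were counted with complex IV.

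The series holds 56 spontaneous mammary tumours, all driven by the polyoma middle T antigen under the mouse mammary tumour virus promoter (MMTV-PyMT) in crosses with 18 AKXD sublines. AKXD sublines are recombinant inbred strains derived from AKR/J and DBA/2J mice, so the tumours of 1 subline share a genetic background and the sublines differ from each other. There were 3 tumours, labelled as biological replicates, in each of 16 sublines and 4 in sublines 2 and 25. The labels name no tumour-free or transgene-free control, and they give no age, so every comparison is between sublines that all carry the transgene, whose promoter acts in the mammary epithelium.

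Each tumour was hybridised to both arrays. The rule leaves out the 3 array A hybridisations of subline 23 and replicate 3 of subline 25, whose median correlation with the other array A hybridisations was 0.223 to 0.948. On array B it leaves out replicate 3 of subline 11, replicate 2 of subline 23 and replicate 3 of subline 25, at 0.858 to 0.919. The 52 array A and 53 array B hybridisations that remained had median correlations of 0.97 to 0.991 and 0.968 to 0.991. Their number limits the precision. The luminal keratins Krt8 and Krt18 had mean log2 values of 12.59 and 12.83 and the epithelial adhesion gene Epcam 13.12. These are whole tumours, so fewer cells of a type and less RNA per cell cannot be told apart.

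Complex I takes electrons from NADH and complex II takes them from succinate. Complex III passes them to cytochrome c, complex IV (cytochrome c oxidase) hands them to oxygen, and complex V, the ATP synthase, uses the proton gradient that results. Complex II is encoded wholly in the nucleus, whereas the other complexes combine nuclear subunits with a few encoded in mitochondrial DNA. Some complex IV subunits exist as tissue isoforms, among them the heart and skeletal muscle forms Cox6a2, Cox7a1 and Cox8b beside the widely expressed Cox6a1, Cox7a2 and Cox8a.

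Most members held nearly the same level in every tumour. The SD over tumours ranged from 0.08 to 0.79 on the log2 scale, with a median of 0.14, the same as the median of 0.14 over all 18193 genes. The median SD between tumours of 1 subline was 0.13, so most of the spread lay within sublines. The median intraclass correlation, the share of variance that lies between sublines, was 0.08 for members and 0.04 for all genes. The 3320 genes between the lower and upper quartile of the members' brightness had a higher median SD, 0.16, and a median intraclass correlation of 0.10. Between the sublines with the lowest and the highest mean, the median member differed by 0.31 on the log2 scale. Cox8b, Cox6a2 and Cox7a1, all in complex IV, stood above every other member in spread, and the assembly factor Ndufaf1 came next at 0.27.

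**Figure D1:**
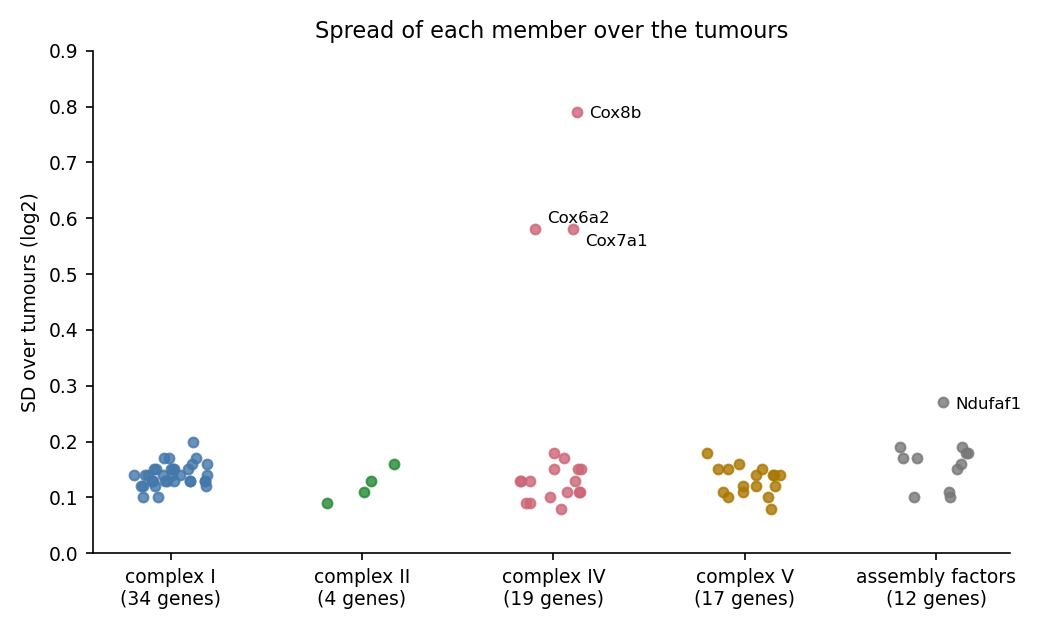
SD of each of the 86 genes over the kept tumours (log2 scale, vertical axis), 1 point a gene, grouped by complex with a small sideways shift to separate points. The muscle-type isoforms Cox8b (0.79), Cox6a2 (0.58) and Cox7a1 (0.58) lie apart from the rest, whose highest value is 0.27 for Ndufaf1.

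A moderated F test in limma asked of each probe set whether subline means differed beyond the spread between tumours. A gene was called where the p-value, adjusted by Benjamini-Hochberg over all probe sets of its array, was under 0.05. The test called 2 of the 86 members (2.33%), Ndufaf1 and the ATP synthase subunit gene Atp5mpl. Over all probe sets it called 1.74% on array A and 0.671% on array B, and over the brightest probe set of every gene 1.24%. Among the 3320 genes of similar brightness the share was 2.47%, so the members' count was near the background. Unadjusted p-values under 0.05 came to 9 members (10.5%), against 13.9% of all genes and 22.2% of the genes of similar brightness.

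A contrast of each subline with the mean of the others made 4 calls in 1469 pairs of a member and a subline. All 4 were lower values of complex V genes in subline 21. The same contrasts called 0.237% of pairs lower and 0.221% higher over all probe sets of array A. Without array A probe sets below the median brightness, 0.815% of pairs were called, lower and higher together.

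Complex I had no gene called among sublines by limma, with 2 of 34 genes at an unadjusted p under 0.05. Ndufs8, which carries iron-sulfur clusters of the arm that faces the matrix, had array values from 10.95 (subline 9) over a median of 11.23 to 11.58 (subline 21). Its 3 tumours in subline 9 read 10.97, 10.95 and 11.12, below the 11.51, 11.25 and 11.35 of subline 7 without overlap. The adjusted p among sublines was 0.213. Ndufa13, an accessory subunit also known as GRIM-19, read 11.21, 11.12 and 10.96 in subline 16 and 11.45, 11.41 and 11.54 in subline 3. These groups did not overlap either, and the adjusted p over all sublines was 0.223. For both genes the sublines compared are those with the lowest and the highest mean, so the lack of overlap is not a test.

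Other core subunits of complex I varied about as much as Ndufs8 (SD 0.14), with SDs from 0.12 (Ndufv1) to 0.16 (Ndufs7). Ndufs1, the largest subunit, ranged from 9.63 to 10.27 with a median of 9.95. Ndufv1, which binds NADH, ranged from 10.31 in tumour 1 of subline 21 to 10.85, with a median of 10.59. Ndufs3 lay between 10.55 and 11.20, and Ndufs7 between 10.40 and 11.01. Their adjusted p-values were 0.483 for Ndufs1, 0.41 for Ndufv1, 0.564 for Ndufs3 and 0.482 for Ndufs7. The widest spread within complex I was that of the accessory subunit Ndufb10, with an SD of 0.20.

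In several sublines nearly all complex I genes lay on 1 side of the others, each by a small amount. Sublines with at least 30 of the 33 complex I genes measured on array A on 1 side are given here. In subline 20, 32 of 33 were below the mean of the other sublines, with a median difference of -0.06, and 55.9% of all genes on the array were below. In subline 16, 31 were below (median -0.11), against 49.9% of all genes. Subline 2 had 31 below (median -0.04), against 51.3%, and subline 9 had 30 below (median -0.09), against 48.3%. In subline 22, 31 were above (median 0.10), where 42.1% of all genes were below. Subline 24 had 30 above (median 0.09), where 49.5% of all genes were below. The tumours of a subline were uneven. The mean log2 deviation of the 33 genes was -0.03, 0.02, -0.18 and 0.02 in tumours 1 to 4 of subline 2. It was -0.00, -0.06 and -0.14 in subline 20, -0.09, -0.20 and -0.02 in subline 16, and -0.11, -0.04 and -0.08 in subline 9. Subline 22 had 0.02, 0.12 and 0.17, and subline 24 had 0.08, 0.04 and 0.11. No complex I gene was called by limma in any of these sublines. At an unadjusted p under 0.05 there were 2 of the 33 genes in subline 20, where 2.91% of all array A probe sets passed. In subline 16 the count was 6 against 9.51% of all probe sets, and in subline 2 it was 1 against 10.5%. It was 1 in subline 9 against 5.27%, 10 in subline 22 against 15.3%, and 4 in subline 24 against 7.83%. The counts do not carry 1 independent result per gene, since complex I genes varied together from tumour to tumour, as the correlations show further on. Subline 22 and subline 24 also had tumours with high skeletal muscle and adipocyte scores. They reached 2.38 and 1.49 in subline 22, and 2.31 and 1.31 in subline 24. High scores were not particular to these sublines. Tumour 1 of subline 2 had 1.84 and 1.12, and tumour 2 of subline 10 had 1.92 and 1.57. The highest muscle scores in sublines 20, 16 and 9 were -0.22, 0.35 and 0.32. The part of these markers in the complex I values was not tested.

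Complex II is the succinate dehydrogenase of the citric acid cycle, with a flavoprotein (Sdha), an iron-sulfur protein (Sdhb) and membrane anchors (Sdhc, Sdhd). None of the 4 genes was called by limma, and 1, Sdhb, had an unadjusted p under 0.05. Sdhb read 10.98, 10.91 and 11.15 in subline 16 and 11.55, 11.09 and 11.38 in subline 24, where its highest value lay. These groups overlapped, and the adjusted p among sublines was 0.317. Sdhd read lowest in subline 21, with a mean of 11.34 ± 0.23 (SD, n = 3), and highest in subline 24, at 11.65 ± 0.03 (SD, n = 3), with an adjusted p of 0.444 among sublines in limma.

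Probe sets of 1 gene did not always follow each other. For Sdha the brightest probe set, on array A, gave an adjusted p of 0.425. A dim Sdha probe set on array B (mean 5.50) was called among sublines by limma with an adjusted p of 0.000457. It read 6.25, 5.76 and 5.98 in subline 21 and 5.01, 5.31 and 5.20 in subline 24, with no overlap. These are the sublines with its highest and lowest mean. Across 51 tumours the 2 probe sets correlated at 0.00. Ndufa12, an accessory subunit of complex I, was called through another probe set, which averaged 10.24 ± 0.06 (SD, n = 3) in subline 9 and 11.01 ± 0.28 (SD, n = 3) in subline 22. Its adjusted p in limma was 0.0217, against 0.919 for the brightest Ndufa12 probe set. The third such case was a dim Atp5a1 probe set, highest in subline 22 at 7.42, 7.11 and 7.10, whose adjusted p in limma was 0.00606. The brightest Atp5a1 probe set had its lowest mean in subline 21 instead. The dim Sdha mean of 5.50 lay within the range of the poly-A control probe sets on array B, 4.06 to 6.77. The dim Atp5a1 mean of 6.52 lay within that on array A, 4.28 to 7.12. These controls have no mouse transcript, so both calls are limited by low signal.

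Complex III carries no symbol of the rule and was followed as a list of 10 genes that includes cytochrome c. Limma called 1 of them among sublines, Uqcrc1, a core protein of the complex, with an adjusted p of 0.00538. Its tumours in subline 21 read 10.89, 10.87 and 11.10, whereas the other 49 tumours ran from 10.99 over a median of 11.37 to 11.70. The difference of subline 21 from the others was -0.39 ± 0.07 (SE), with an adjusted p of 0.00203 in limma. The other lists showed few calls among sublines: 0 of 14 genes for cytochrome oxidase assembly with 2 at an unadjusted p under 0.05, 0 of 15 for regulators of mitochondrial biogenesis with 1, and 0 of 12 for the citric acid cycle with 2. Of the hypoxia list 1 of 10 genes was called among sublines, Pdk1, a kinase that restrains pyruvate entry into the citric acid cycle (adjusted p 0.00578 in limma). Of the cell cycle list 1 of 11 was called, Ccna2 (adjusted p 0.0392). None of the 13 genes encoded in mitochondrial DNA was measured here.

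Complex IV held the members that varied most, although none of its 19 genes was called among sublines by limma and none had an unadjusted p under 0.05. Cox4i1 and Cox5a, subunits of the enzyme in most tissues, had SDs of 0.10 and 0.17. Cox4i1 ranged from 12.38 to 12.85 and Cox5a from 11.88 to 12.63. Cox4i2, the lung-type partner of Cox4i1, ranged from 6.95 to 7.52. Cox7b2 averaged 4.45 on array B, close to the median of 4.50 for the poly-A control probe sets there, which have no mouse transcript. Signals of different probe sets have no common scale, so levels were not compared between genes.

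Cox8b, the muscle form of the small subunit VIII, ranged from 7.02 in tumour 1 of subline 14 over a median of 7.91 to 10.18 in tumour 3 of subline 22. Its 3 tumours in subline 22 read 7.79, 9.69 and 10.18, those in subline 24 read 9.71, 8.25 and 9.37, and those in subline 10 read 7.46, 9.85 and 7.56. Tumours of 1 subline thus lay at opposite ends of the range. Within sublines the highest and lowest tumour differed by a median of 1.46 on the log2 scale, and by more than 1 in 14 of 17 sublines. The intraclass correlation was -0.05 and the adjusted p among sublines 0.803 in limma.

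Cox6a2, the muscle form of subunit VIa, ranged from 6.97 over a median of 7.58 to 9.13, and Cox7a1, the muscle form of subunit VIIa, from 6.15 over 6.94 to 8.58. Cox6a2 read 7.12, 8.82 and 6.97 in subline 10 and 7.58, 8.25 and 9.13 in subline 22. Cox7a1 read 7.01, 8.11 and 6.45 in subline 10 and 6.92, 8.02 and 8.58 in subline 22. The same tumour of each subline, tumour 2 of subline 10 and tumour 3 of subline 22, was the highest for all 3 isoforms. Adjusted p-values among sublines were 0.831 for Cox6a2 and 0.55 for Cox7a1 in limma. Of the 13 tumours highest in each isoform, 11 were shared by all 3 isoforms, and they came from 9 sublines. Pairwise correlations between the isoforms over 52 tumours were 0.85, 0.87 and 0.84. A second Cox6a2 probe set on array B followed the first with a correlation of 0.90 over 51 tumours. The widely expressed partners hardly varied, with SDs of 0.08 for Cox6a1, 0.09 for Cox7a2 and 0.09 for Cox8a.

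The isoforms followed the markers of skeletal muscle and fat. The skeletal muscle list had all 18 genes measured, and its score, the mean log2 deviation of its genes, ranged from -2.04 to 2.38 over tumours. Acta1, the actin of muscle fibres, ran from 6.25 to 13.80, and Ckm, the muscle creatine kinase, from 7.55 to 13.07. The score was 0.02, 1.20 and 2.38 in the 3 tumours of subline 22. The adipocyte score, from 8 of 10 genes, ranged from -1.28 to 1.57, and the brown adipocyte score, from 4 genes on array A, from -0.55 to 1.32. Ucp1, which defines brown fat, ran from 6.81 to 11.52, and Cidea from 6.60 to 10.24. Elovl3 (6.09 to 7.08) and Dio2 (6.75 to 7.79) varied far less, so the brown adipocyte score mostly follows Ucp1 and Cidea. The part of these cells in the isoform values was not tested.

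Pearson's r with the skeletal muscle score over 52 tumours was 0.94 for Cox6a2, 0.84 for Cox7a1 and 0.85 for Cox8b, and Spearman's rho was 0.97, 0.79 and 0.83. Without the 2 tumours farthest from the median score, r was 0.94, 0.81 and 0.82. After subtracting subline means it was 0.94, 0.84 and 0.84. With the brown adipocyte score r was 0.72 for Cox6a2, 0.83 for Cox7a1 and 0.86 for Cox8b, and with the adipocyte score 0.74, 0.68 and 0.79. Each of these 9 values of r had a two-sided permutation p of 1e-05, the smallest that 100000 resamples give, and an adjusted p of 2e-05 over 18 relations. With the brown adipocyte score rho was 0.63, 0.67 and 0.75, and r without the 2 farthest tumours was 0.64, 0.77 and 0.82. For the adipocyte score these were 0.69, 0.59 and 0.75, and 0.72, 0.62 and 0.74. Tumour 1 of subline 21 departed from the pattern, with Cox8b at 8.79 and muscle, adipocyte and brown adipocyte scores of -0.71, -0.84 and -0.49. The largest r of a partner was 0.29, for Cox7a2 with skeletal muscle, with a permutation p of 0.0398 and an adjusted p of 0.0716. Tumours of 1 subline are not fully independent, and these relations were chosen after the values were seen.

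**Figure D2:**
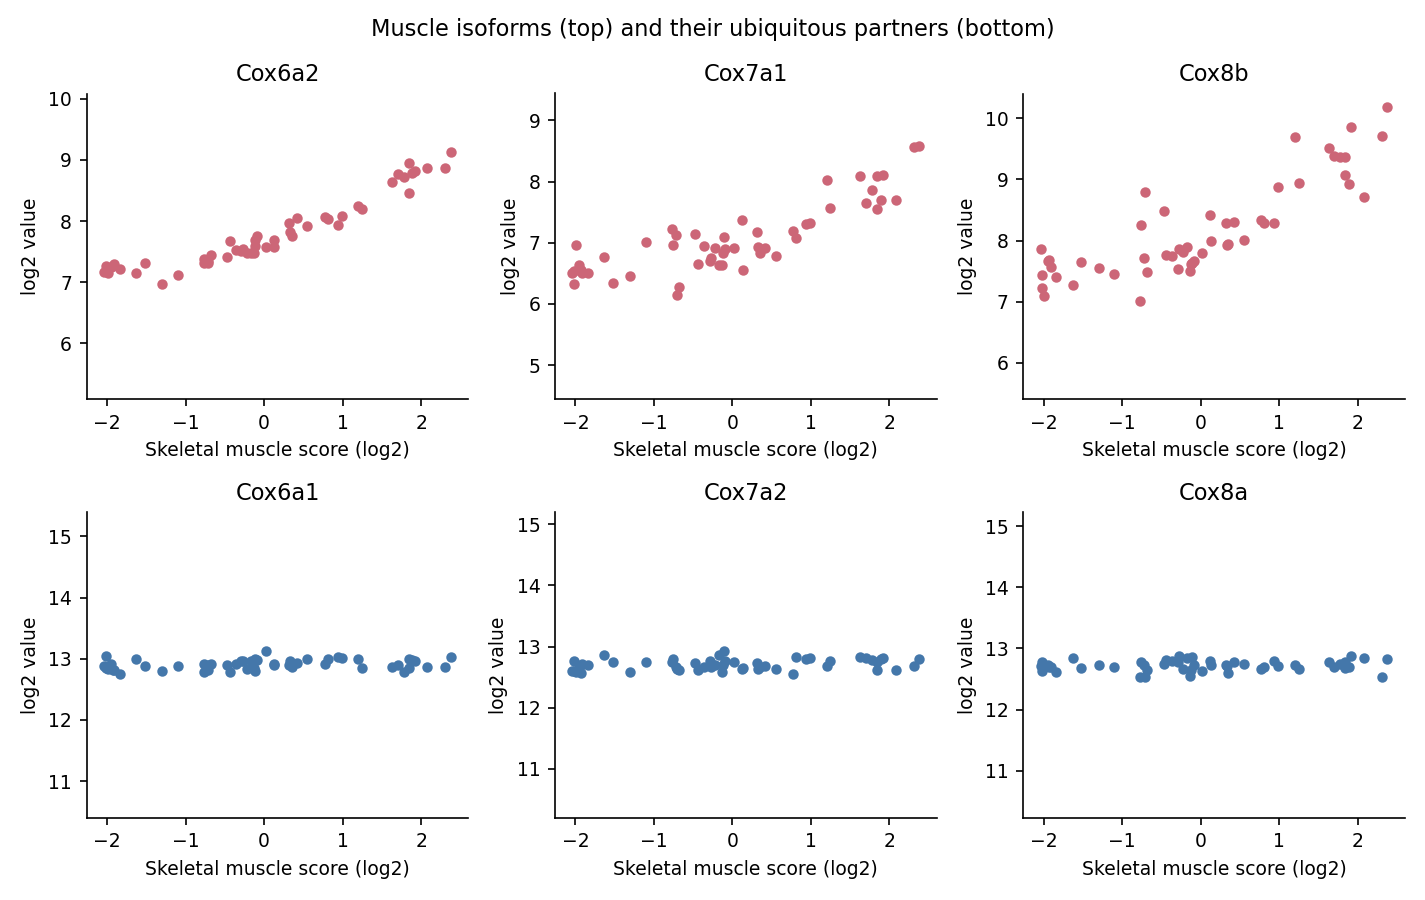
Log2 value of 3 muscle isoforms (top) and their widely expressed partners (bottom) against the skeletal muscle score, the mean log2 deviation of 18 marker genes, with 1 point for each of 52 tumours and vertical axes of equal length. Cox6a2, Cox7a1 and Cox8b climb with the score (r of 0.94, 0.84 and 0.85), while Cox6a1, Cox7a2 and Cox8a stay flat (SD 0.08 to 0.09).

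Promoters of Cox8b, Cox7a1 and the partner genes are shown because the muscle forms varied together and their partners hardly varied. None is shown for Cox6a2. The sequences, from RefSeq on GRCm38.p6, run from 250 bases before to 50 after the transcription start, 5′ to 3′, and come from the C57BL/6J reference, not from AKXD mice. All 86 members matched a RefSeq gene and 73 had a promoter entry. Capitals mark matches, on either strand, to the NRF1 palindrome, the ETS motif CCGGAAGT, the YY1 motif AAGATGGCG, the ERR site AAGGTCA or the E-box CAGCTG of muscle regulators.
Cox8b promoter, chr7:140900397-140900696, minus strand: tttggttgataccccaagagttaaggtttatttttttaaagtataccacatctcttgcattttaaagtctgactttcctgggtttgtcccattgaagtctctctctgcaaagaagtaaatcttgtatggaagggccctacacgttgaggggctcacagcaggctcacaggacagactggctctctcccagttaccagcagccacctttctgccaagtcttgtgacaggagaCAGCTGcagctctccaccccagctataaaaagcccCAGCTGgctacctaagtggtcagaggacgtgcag
Cox7a1 promoter, chr7:30183921-30184220, plus strand: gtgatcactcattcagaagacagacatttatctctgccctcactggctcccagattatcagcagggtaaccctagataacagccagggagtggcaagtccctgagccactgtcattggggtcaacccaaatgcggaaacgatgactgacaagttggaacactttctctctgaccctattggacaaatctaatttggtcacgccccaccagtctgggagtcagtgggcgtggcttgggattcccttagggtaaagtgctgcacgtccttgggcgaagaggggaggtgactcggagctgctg
Cox8a promoter, chr19:7217567-7217866, minus strand: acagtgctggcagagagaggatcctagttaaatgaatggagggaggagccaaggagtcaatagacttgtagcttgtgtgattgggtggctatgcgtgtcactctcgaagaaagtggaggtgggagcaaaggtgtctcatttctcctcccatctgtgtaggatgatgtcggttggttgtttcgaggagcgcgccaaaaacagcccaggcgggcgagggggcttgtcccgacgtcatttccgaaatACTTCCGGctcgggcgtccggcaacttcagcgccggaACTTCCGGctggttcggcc
Cox7a2 promoter, chr9:79759804-79760103, minus strand: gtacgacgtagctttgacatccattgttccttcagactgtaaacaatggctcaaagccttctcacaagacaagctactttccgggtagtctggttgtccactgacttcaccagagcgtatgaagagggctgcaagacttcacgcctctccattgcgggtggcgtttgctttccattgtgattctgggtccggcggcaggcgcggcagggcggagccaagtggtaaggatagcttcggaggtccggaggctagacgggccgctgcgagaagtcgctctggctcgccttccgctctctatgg
Cox6a1 promoter, chr5:115348909-115349208, minus strand: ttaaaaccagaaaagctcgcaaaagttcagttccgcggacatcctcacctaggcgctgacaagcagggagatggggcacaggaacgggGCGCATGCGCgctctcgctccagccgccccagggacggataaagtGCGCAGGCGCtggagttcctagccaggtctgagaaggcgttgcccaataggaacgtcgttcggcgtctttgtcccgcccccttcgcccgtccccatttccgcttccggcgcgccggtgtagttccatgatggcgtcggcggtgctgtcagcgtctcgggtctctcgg

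The Cox8b promoter held 2 E-boxes, near its start site, and no match to the other motifs. The Cox7a1 and Cox7a2 promoters held no match to any of the motifs. The Cox8a promoter held 2 ETS matches and the Cox6a1 promoter 2 NRF1 matches. NRF1 is a regulator of nuclear genes for respiratory subunits. Its motif was found in 18 of 73 member promoters (24.7%), against 8.63% of 14368 promoters of measured genes. By complex it was in 6 of 15 for complex V, 5 of 31 for complex I, 2 of 3 for complex II, 1 of 13 for complex IV and 4 of 11 for assembly factors. The YY1 motif was in 9.59% of member promoters against 2.54%, and the ERR site, bound by oestrogen-related receptors, in 11% against 4.61%. The ETS motif was in 4.11% against 6.65%, and the E-box in 8.22% against 18.8%. A match describes letters in this window and not a bound site.

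Complex V held the 4 genes called lower in subline 21, which lay in the catalytic head, the stator stalk and the membrane part. On array A, 0.99% of all probe sets were called lower in subline 21 and 2.41% higher. Without probe sets below the median brightness, 2.56% were called lower and 4.2% higher, and 5 members were called lower. Atp5a1, the alpha subunit of the catalytic head, read 12.58, 12.98 and 12.83 in subline 21. The other 49 tumours ran from 12.89 over a median of 13.19 to 13.37. The lower pair of the subline 21 tumours was below every other tumour, and the third was above 4 of them. The difference was -0.37 ± 0.07 (SE), with an adjusted p of 0.00147 in limma. Over all sublines Atp5a1 had an adjusted p of 0.0573, just outside the threshold. It was called among sublines with a replicate block (0.039), without probe sets below the median brightness (0.0416), with median centring (0.048), array weights (0.00121) or a trended robust prior (0.0443), and without tumour 2 of subline 21 (0.0276). In the other settings run it was not called, with 0.204 without tumour 1. A second Atp5a1 probe set also had its lowest mean in subline 21, at 11.69 ± 0.30 (SD, n = 3), with an adjusted p among sublines of 0.815.

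Atp5b, the catalytic beta subunit, read 12.74, 13.13 and 12.63 in subline 21, against 12.82 to 13.32 elsewhere. The value of tumour 2 lay above 27 of the other 49 tumours, so the groups overlapped. The difference was -0.27 ± 0.08 (SE), with an adjusted p of 0.0377 in limma. Atp5pb, the b subunit of the stator stalk, read 11.06, 11.45 and 11.05, against 11.30 to 11.87 elsewhere. Tumour 2 lay above 14 of the other tumours, and the other two lay below all of them. The difference was -0.34 ± 0.09 (SE), with an adjusted p of 0.023 in limma.

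Atp5mpl, a small subunit in the membrane part of the enzyme, was called both among sublines and in subline 21. Its subline means ran from 10.75 ± 0.14 (SD, n = 3) in subline 21 to 11.14 ± 0.05 (SD, n = 3) in subline 13, a 1.31-fold difference with an adjusted p of 0.0492 in limma. This call among sublines was lost without tumour 1 or tumour 3 of subline 21 (adjusted p 0.0717 and 0.0938) and without any 1 replicate of every subline (0.309 to 0.576). It was also lost with a replicate block (0.0756), quantile normalization (0.0894), a trended robust prior (0.0626) or composition scores (0.0754), without sublines 2, 20, 24 and 27 (0.079), and with all arrays (0.583). The subline 21 tumours read 10.79, 10.87 and 10.60, and the other 49 ran from 10.78 to 11.21. Tumour 3 lay below all of the other tumours, tumour 1 lay above 2 of them and tumour 2 above 8. The difference was -0.23 ± 0.05 (SE), with an adjusted p of 0.0145 in limma.

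**Figure D3:**
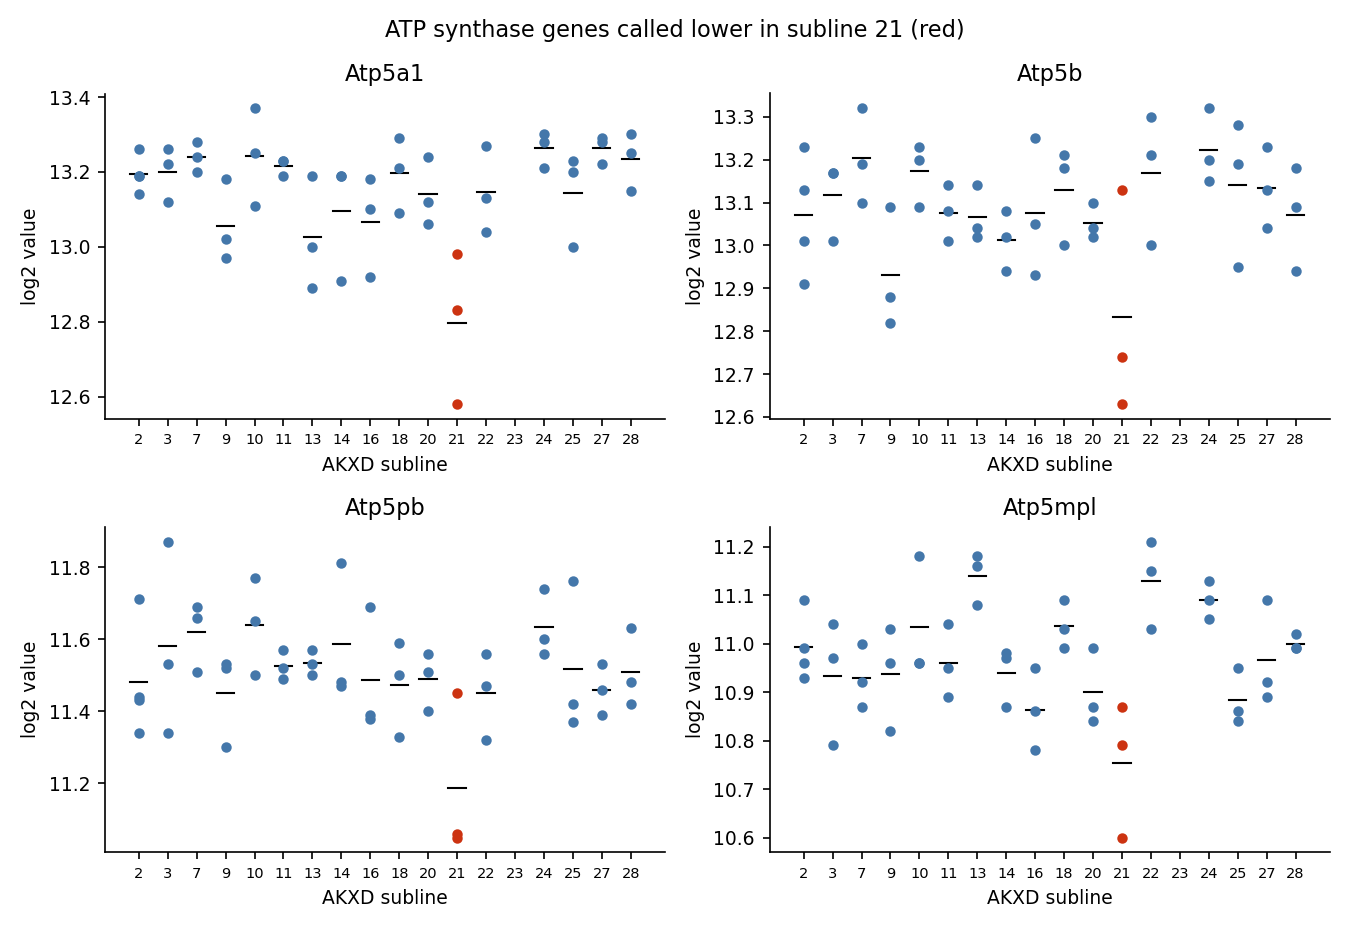
Log2 values of 4 ATP synthase genes in each kept tumour (points) with the subline mean (bar), by AKXD subline, with subline 21 in red. The subline 21 means are the lowest of 17 for all 4 genes, and subline 23 has no kept hybridisation on array A.

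The 3 tumours of subline 21 were not alike. Tumour 2 was the highest of the 3 for each of these genes. Without tumour 1, limma called none of the 86 members in subline 21, with 9 lower and 5 higher at an unadjusted p under 0.05. Over all array A probe sets that fit called 0.0928% lower and 0.813% higher in subline 21. The Atp5a1 difference was then -0.27, with an adjusted p of 0.0777. Without tumour 3 it called only Atp5a1, at -0.39 with an adjusted p of 0.00485, and over all probe sets 0.915% lower. Without tumour 2 it called 8 members, 7 lower and 1 higher, and over all probe sets 2.94% lower and 4.36% higher. With array weights limma called none of the members in subline 21, with 6 lower and 2 higher at an unadjusted p under 0.05, and the Atp5a1 difference was -0.30 with an adjusted p of 0.184. That fit called 0% of all probe sets lower in subline 21 and 0.0177% higher.

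Among other measures of subline 21, its tumour 1 stood out most. Tumour 1 had the lowest median correlation of all kept array A hybridisations, 0.97 against a median of 0.988. Its luminal epithelial score was -0.96, where tumours 2 and 3 were at -0.03 and the range over all tumours was -1.21 to 0.47. Its cell cycle score of -0.61 was the lowest of 52, against 0.03 and -0.12 in tumours 2 and 3. Its hypoxia score was 0.74, against 0.28 and 0.25, in a range of -0.39 to 0.81. All 18 skeletal muscle markers were lower in subline 21 than in the others, with a median difference of -1.27. So were all 8 adipocyte markers (-0.74) and all 8 macrophage markers (-0.27). All 6 T cell (-0.13), all 6 B and plasma cell (-0.22) and all 7 male germ cell genes (-0.08) were lower too. Of 9 luminal epithelial genes 7 were lower, with a median of -0.26, and of 6 brown adipocyte genes 5 were lower (-0.31). Of 11 pericyte and smooth muscle genes 7 were higher. Over all genes on array A 59.8% were lower. None of these marker genes was called. Of 10 hypoxia genes, 9 were higher, with a median of 0.37, and none was called. Of 11 cell cycle genes, 10 were lower, with a median of -0.28. Ccna2, a cyclin of S phase and mitosis, was called lower, at -0.44 ± 0.12 (SE) with an adjusted p of 0.0279 in limma. The part of epithelial content, cell cycle and hypoxia in the complex V values was not tested. With the skeletal muscle, adipocyte, T cell and B cell scores in the model, the difference was -0.33 for Atp5a1, -0.32 for Atp5pb, -0.20 for Atp5mpl and -0.22 for Atp5b. Their adjusted p-values in limma were then 0.00701, 0.0345, 0.0289 and 0.0826.

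The lower values in subline 21 did not extend evenly over the chain. Of 17 complex V genes 13 were lower, with a median of -0.06, and of 33 complex I genes 19 were lower, with a median of -0.01. All 4 complex II genes were lower (median -0.12), as were 14 of 17 complex IV genes (median -0.08). Of the 8 assembly factors on array A 7 were higher, with a median of 0.12. Over all genes on array A 59.8% were lower in subline 21, with a median of -0.04. Differences between the complexes were not tested. Ndufb9, an accessory subunit of complex I, read 11.65, 12.03 and 11.52 in subline 21, a difference of -0.31 ± 0.10 (SE) with an adjusted p of 0.0571 in limma.

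The other subunits of complex V differed little between sublines. Atp5g1, Atp5g2 and Atp5g3 encode the same mature ring subunit c, and had SDs of 0.14, 0.15 and 0.08. Their adjusted p-values among sublines were 0.843, 0.634 and 0.584 in limma. Atp5h, the d subunit of the stalk, read 11.92, 11.92 and 11.98 in subline 11 and 12.26, 12.28 and 12.29 in subline 9. Those sublines, the ones with its lowest and highest mean, did not overlap, and the adjusted p over all sublines was 0.234.

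Among the assembly factors Ndufaf1 was called. It helps build the membrane arm of complex I and is not part of the finished enzyme. Its gene is on chromosome 2, and 1 probe set measures it. Its tumours ran from 6.99 over a median of 7.70 to 8.20. Subline 3 read 8.02, 7.89 and 8.20 and subline 10 read 8.12, 8.02 and 7.91. Subline 16 read 7.48, 7.20 and 7.36 and subline 9 read 7.30, 7.46 and 7.29. The high and the low pair of sublines did not overlap, but they were picked after the values were seen, so this is not a test. Subline means ran from 7.35 ± 0.14 (SD, n = 3) in subline 16 to 8.04 ± 0.16 (SD, n = 3) in subline 3, a 1.61-fold difference.

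The intraclass correlation of Ndufaf1 was 0.47, so a large part of its variance lay between sublines, and the adjusted p was 0.0258 in limma. It did not rest on 1 subline: no single subline differed from the others at an adjusted p under 0.05, and the largest difference was 0.38 ± 0.12 (SE) in subline 3, with an adjusted p of 0.407 in limma. Some sublines were mixed. Subline 2 read 6.99, 7.42, 7.81 and 7.84, and subline 7 read 7.99, 7.30 and 8.04. With replicate 1, 2 or 3 of every subline left out, the adjusted p was 0.391, 0.152 and 0.457. In those fits limma called 14, 92 and 34 of all 22626 array A probe sets, against 393 with all kept arrays.

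**Figure D4:**
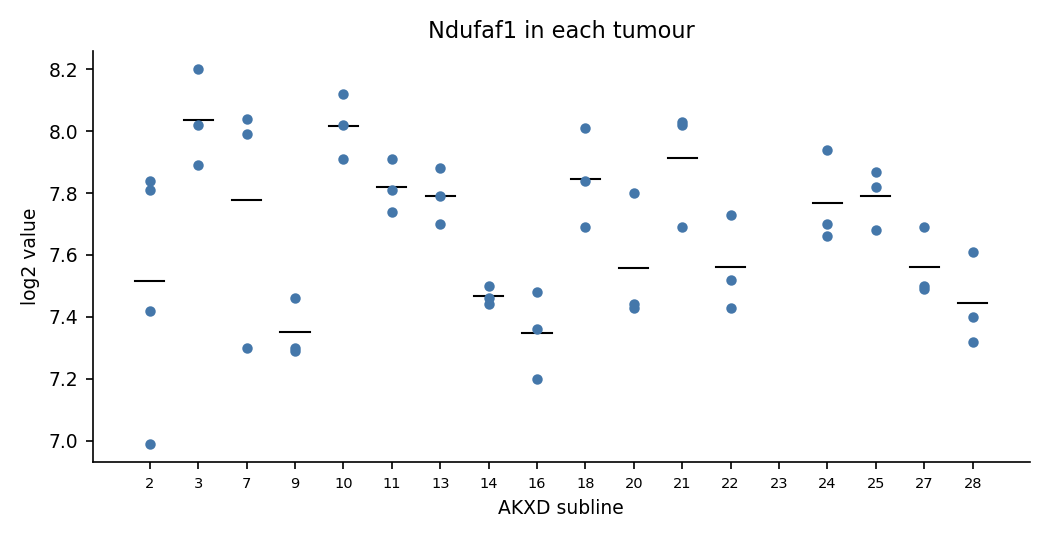
Log2 value of Ndufaf1 in each kept tumour (points) with the subline mean (bar), by AKXD subline. Sublines 3 and 10, picked as high, lie above sublines 9 and 16, picked as low, without overlap. Subline 2 spans 6.99 to 7.84.

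Ndufaf5, an enzyme that modifies the complex I subunit Ndufs7, came next after the called members and Atp5a1, with subline means from 7.67 ± 0.09 (SD, n = 3) in subline 9 to 8.12 ± 0.15 (SD, n = 3) in subline 28. Its adjusted p was 0.11 in limma. Sdhaf4, an assembly factor of complex II, had subline means from 9.19 ± 0.30 (SD, n = 4) in subline 2 to 9.57 ± 0.09 (SD, n = 3) in subline 21, with an adjusted p of 0.292.

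The members moved together from tumour to tumour. Over the 52 tumours the median Pearson's r between 2 members on array A was 0.33, and 85.7% of pairs were above 0. Over all pairs of genes on array A the median was -0.00, with 49.3% above 0. Within complex I the median was 0.48 and 99.2% of pairs were above 0, and within complexes II, V and IV it was 0.39, 0.31 and 0.18. Between complex I and complex V it was 0.38. These values describe tumours that share arrays and normalization across genes. After subtracting subline means the median was 0.33 for all members and 0.49 for complex I, so the pattern was as strong between tumours of 1 subline. After fitting the skeletal muscle, adipocyte, T cell and B cell scores it was 0.27 and 0.41, and after centring every array on its median 0.38 and 0.53.

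**Figure D5:**
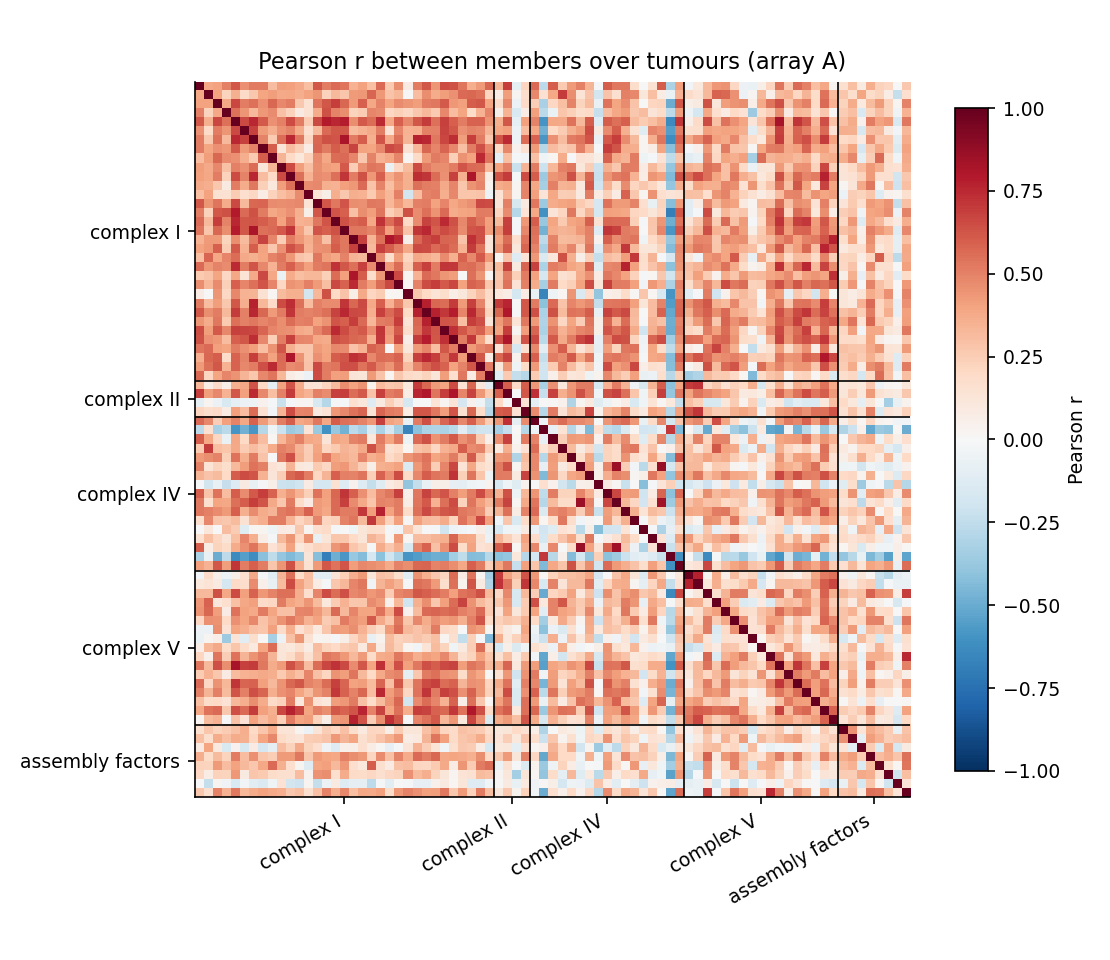
Pearson's r over 52 tumours between each pair of the 79 members measured on array A (colour, red above 0 and blue below), ordered by complex and then by symbol. Complex I forms an even red block (median 0.48), while complex IV (median 0.18) holds blue lines for Cox4i2 and Cox8c, whose r with the other members' mean is -0.40 and -0.55.

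Ndufs3, a core subunit of the matrix arm, followed the mean of the other members most closely, with r = 0.90. Ndufs7 followed with 0.85, Sdhb with 0.84, and Ndufb3 and Ndufa5 with 0.83 each. At the other end were the isoform genes Cox8c (-0.55), Cox4i2 (-0.40) and Cox6b2 (-0.08). Cox8c and Cox6b2 are known from testis. A list of male germ cell genes, 7 of them measured, had r with the members' mean from -0.38 (Prm1) to -0.16 (Ldhc). Negative values were thus not particular to these isoforms, and their cause was not tested. The complex II assembly factor Sdhaf2 (-0.06), Cox7c (-0.02) and Sdhc (-0.00) also stood apart. The mean signals of Cox7c (7.02) and Cox6b2 (6.42) lay within the range of the poly-A controls on array A, 4.28 to 7.12. Outside the members, the 5 genes on array A most like their mean over 52 tumours were Uqcrq (r = 0.83), Ecsit (0.80), Acot13 (0.79), Smdt1 (0.77) and Idh3g (0.77). Skeletal muscle markers had r with that mean from 0.30 (Myh7) to 0.69 (Mb). Brown adipocyte markers ran from -0.33 (Dio2) to 0.65 (Cidea), with 0.60 for Ucp1. The mean includes Cox6a2, Cox7a1 and Cox8b, and the scores fitted above did not include the brown adipocyte score. The part of these cells was not tested.

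The mean log2 deviation of the 79 members on array A ran from -0.16 in tumour 3 of subline 2 to 0.19 in tumour 3 of subline 3, a 1.27-fold range. In subline 3 the tumours read 0.11, -0.14 and 0.19, so tumours of 1 subline spanned most of it. The intraclass correlation of this score was 0.10. For complex I the score ran from -0.20 to 0.26 with an intraclass correlation of 0.07, for complex V from -0.18 to 0.22 with 0.02, and for assembly factors from -0.27 to 0.20 with 0.38. The complex IV score was highest in tumour 3 of subline 22, at 0.35. This score includes Cox6a2, Cox7a1 and Cox8b, which had their highest values in that tumour, 9.13, 8.58 and 10.18. Their means were 7.79, 7.08 and 8.19. Without Cox6a2, Cox7a1 and Cox8b the score over the remaining 76 members ran from -0.14 to 0.21, a 1.28-fold range.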

How the data were processed

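RNA of 56 tumours was measured on MOE430A and MOE430B arrays. The deposited values are log2 signals made by the authors with RMA, per the submitters' processing notes. No source used here gives the chip definition or software version, and no column belonged to another series. On each array 64 control probe sets were set aside, leaving 22626 on array A and 22511 on array B. Each array type was fitted separately in limma 3.58.1 (R 4.3.3), with 1 mean per subline on the kept arrays, an F test among sublines and a contrast of each subline with the unweighted mean of the others. Benjamini-Hochberg adjustment ran over all probe sets of an array, with 0.05 as the threshold. P-values measure subline differences against the spread between tumours. The fit was tested on simulated data. Scores are means of log2 values minus gene means. Correlations and figures used Python 3.11.15.

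Named genes were members called, the brightest, dimmest and widest-ranging of each complex, tissue isoforms, catalytic subunits and called genes of the lists. Other genes, such as those with groups that do not overlap, were named after their values were seen. Members and lists were chosen with earlier results of these data known. Alternatives comprised all arrays, a replicate block, a filter on dim probe sets, other normalizations, array weights, another variance prior, composition scores, other probe sets and left-out tumours or sublines.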

Additional observations from a re-analysis of the deposited data

Results flagged for a closer look

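In subline 2, the subline with 4 kept tumours on both arrays, 1 tumour stood apart from the other 3 for 4 of the 44 genes checked with Dixon's test. Cox4i1, the widely expressed subunit IV of cytochrome c oxidase, read 12.73 in tumour 4 and 12.60 to 12.61 in the others. Ndufb4 read 6.05 in tumour 4 and 5.78 to 5.82 in the others. Its mean of 5.93 on array B lay within the range of the poly-A control probe sets there, 4.06 to 6.77. Ndufa6 read 10.52 in tumour 3 and 10.86 to 10.92 in the others, and Ndufb9 read 11.82 in tumour 3 and 12.04 to 12.06 in the others. The 3 genes besides Cox4i1 encode accessory subunits of complex I. Tumour 3 of subline 2 was also the lowest of 52 in the mean deviation of all members, at -0.16. Chance alone marks about 1 in 20 groups.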

How the results depend on the processing

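The main setting called 2 members among sublines and made 4 calls of 1 subline against the others. With all 56 arrays of each type the counts were 1 and 64, with quantile normalization 1 and 8, and with array weights 31 and 46. With array weights the member calls lay in sublines other than 21. Over all array A probe sets the shares called among sublines and over pairs of a probe set and a subline were 1.74% and 0.459% in the main setting. They were 3.93% and 3.86% with all arrays, 1.88% and 0.518% with quantile normalization, and 40.8% and 4.08% with array weights. With composition scores, and without sublines 2, 20, 24 and 27, 1 member was called among sublines and 3 calls of 1 subline were made. The most variable probe set of each gene gave 5 and 8. Without replicate 1, 2 or 3 of every subline limma called 0 to 0 members among sublines (4, 14 and 11 at an unadjusted p under 0.05) and made 1 to 8 calls of 1 subline. Leaving out a tumour of subline 21, chosen after seeing the data, gave 1 to 3 and 0 to 8.

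The replicate block gave 2 and 5. The replicate numbers do not pair the tumours: same-numbered tumours of different sublines had a median correlation of 0.00, and differently numbered ones -0.00. Median centring gave 3 and 5, leaving out probe sets below the median brightness 2 and 5, a trended robust prior 2 and 4, and array A alone 2 and 4. The cause of these shifts was not tested, except that left-out replicates leave fewer tumours. Ndufaf1 kept its call in every one of these settings in which it was tested, except with all arrays and without a replicate of every subline. Signal within the range of the poly-A controls limits Cox7b2, Ndufb4, Cox6b2, Cox7c and other dim probe sets, among them the called dim Sdha and Atp5a1 probe sets.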

Other observations

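The array A hybridisations of subline 23 stand apart from the rest, and they are not part of the comparisons. With all arrays in the fit, limma called 60 of 79 members lower and 2 higher in subline 23, with a median difference of -1.06. The same fit called 33.5% of all array A probe sets lower and 35.8% higher in subline 23. These values come from hybridisations whose median correlation with the others was outside that of the kept ones.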
